A study of Rattus norvegicus with 49 samples.

Results

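The comparison of mid-life with young adulthood in hippocampal area CA1 rests on the 9 arrays labelled 12 months and the 9 labelled 3 months, 18 of the 49 arrays of the study. Its members are the probe sets with 1 gene symbol and a signal of at least 100 on 5 or more of the 49 arrays, which are 9541 of 15923 probe sets and represent 8094 genes. Both groups were Fisher 344 rats whose labels name no drug, diet or genetic change. Every animal had been through water maze training and testing, so all values come from trained animals killed within about a day of the last session. CA1 tissue was dissected from the left hippocampus, and the RNA of each animal was hybridised to its own Affymetrix RAE 230A array. The other ages were 6 and 9 months, 9 arrays each, and 23 months, 13 arrays, an age that the design text gives as 25 months in one place; the labels' 23 months is used. They shared the estimate of the spread between animals, and their values are given beside those of the 2 groups. Neither the sex of the animals nor the order of hybridisation is given in the sources used here.

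CA1 is the field of pyramidal neurons through which the hippocampus proper sends most of its output, and it is needed for spatial memory of the kind the water maze measures. Its tissue also holds astrocytes, oligodendrocytes, vessels and microglia, the resident macrophages of the brain. Microglia take up debris and antibody-coated material through Fc receptors, degrade it in lysosomes, and make complement and class II histocompatibility proteins, several of which are known to be higher in old brain. In bulk tissue a change in the number of cells of a type and a change of RNA per cell cannot be told apart.

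The signal is a MAS5 intensity on a linear scale, and its level was compared between ages within a probe set and never between probe sets. Summed marker signals add probe sets on this linear scale, so bright probe sets weigh most in them. Array medians on the 18 arrays ran from 208 to 222.8, and 10204 to 10699 probe sets per array reached 100. CA1 markers were present in both groups: the Wolfram syndrome gene Wfs1 had a signal of 5656 ± 300.5 at 3 months and 5553 ± 554 at 12 months (SD, n = 9 each), and Dkk3 had 2231 ± 157 and 2267 ± 151. Their values overlapped, and of the 8 CA1 marker genes measured none passed the test. As a measure of RNA integrity, the log2 ratio of 3′ to 5′ signal of control transcripts was above that of 3 months by 0.0397 at 12 months for GAPDH (exact two-sided permutation p = 0.131, adjusted 0.262) and by 0.0206 for actin (exact p = 0.766). Without the 4 arrays described next, the GAPDH difference was 0.0501 (exact p = 0.0185, not adjusted). Without 3 month replicate 4 alone it was 0.0546 (exact p = 0.0175, not adjusted). The part of RNA integrity in the results was not tested.

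Markers of choroid plexus, which adjoins the hippocampus, differed on 4 arrays. Transthyretin (Ttr), the main secreted protein of that tissue, had a signal of 3908 to 12003 on 3 month replicates 4, 6, 7 and 8, and of 116 to 437.4 on the other 5 arrays of that age. At 12 months it lay between 109.3 and 656.8. The summed signal of the 13 choroid plexus markers measured, out of 31 listed, had a lowest value of 2459, a median of 2818 and a highest value of 18448 at 3 months, against 2432, 2675 and 3513 at 12 months. Folr1, a second marker of that tissue, lay between 86.8 and 308.3 at 3 months and between 80.8 and 165 at 12 months, so neither marker was at 0. The 12 against 3 month differences and calls were therefore also computed without those 4 arrays, whereas the comparisons of other ages, the counts of groups without overlap and the promoter counts were not. Dentate granule cell markers, from the neighbouring field, overlapped between the groups, with Prox1 between 274.1 and 1073 at 3 months and between 343.7 and 764.6 at 12 months. Haemoglobin (Hbb) lay between 15.4 and 210.3 at 3 months and between 16.5 and 83.9 at 12 months. The summed blood cell markers ran from 208.6 to 396.5 and from 172.3 to 332.7.

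**Figure D1:**
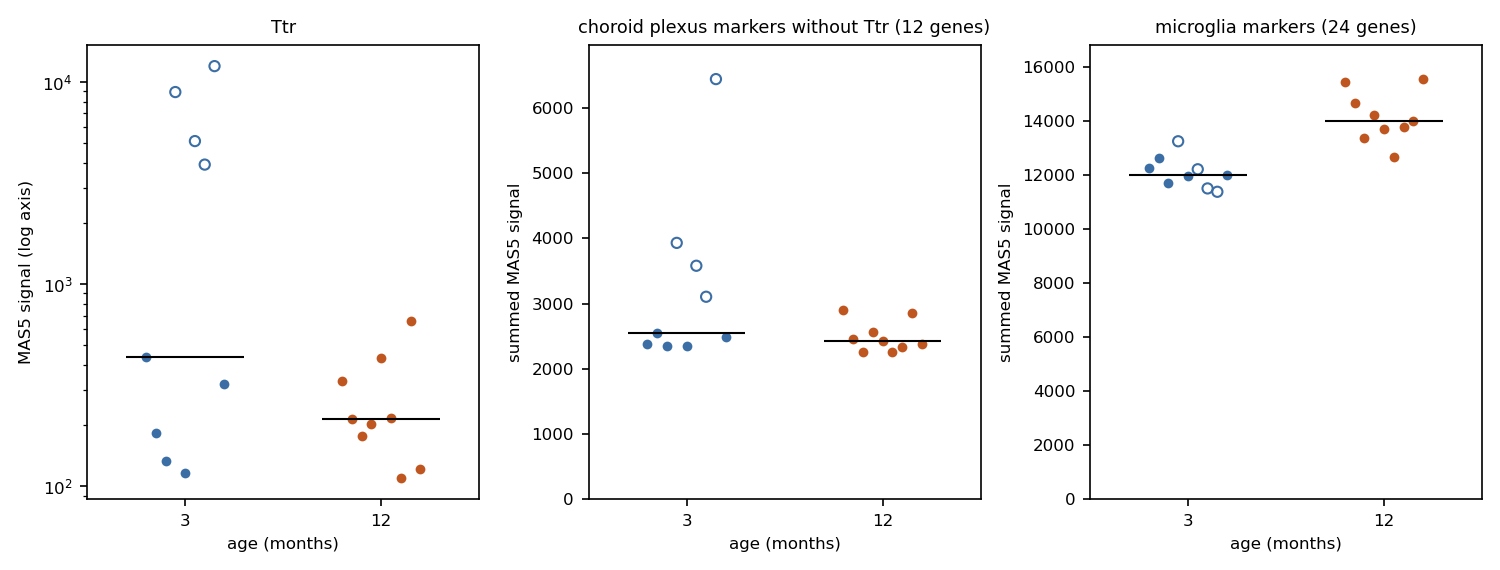
Signal of Ttr (log axis) and summed signal of the other 12 choroid plexus markers and of 24 microglia markers on each array at 3 months (blue) and 12 months (orange). Open symbols are 3 month replicates 4, 6, 7 and 8, and bars are medians. The open symbols stand above all other arrays for Ttr, whereas the microglia sum is higher at 12 months with overlap between the groups.

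Few transcripts differed at mid-life. Of 9541 probe sets, 16 rose and 3 fell at 12 against 3 months (0.168% and 0.0314%, together 0.199%; limma, adjusted p under 0.05). With each gene represented by its probe set of highest mean signal, 15 genes rose and 2 fell, 0.185% and 0.0247% of 8094 and together 0.21%. At an unadjusted p under 0.05 there were 416 probe sets higher (4.36%) and 332 lower (3.48%), together 7.84%. By gene these were 369 higher (4.56%) and 269 lower (3.32%), and the median log2 difference of all genes was 0.00. The probe sets of Ecrg4 and Sema3b and the dimmer one of Nid1 passed the signal filter only through the ages at which they are high. With no filter on signal they were called as well (limma, adjusted p = 0.00924, 0.0257 and 0.00198). The changes were small: the median size among the 17 called genes was 0.43 on the log2 scale, the largest 0.77, and 0 exceeded 1. For each of them 9 of 9 animals of 12 months lay on the same side of the 3 month mean. The genes were chosen by p on these same arrays, so this describes them and adds no support. The spread between animals, as the median SD of log2 signal over genes, was 0.169 at 3 months and 0.177 at 12 months.

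**Figure D2:**
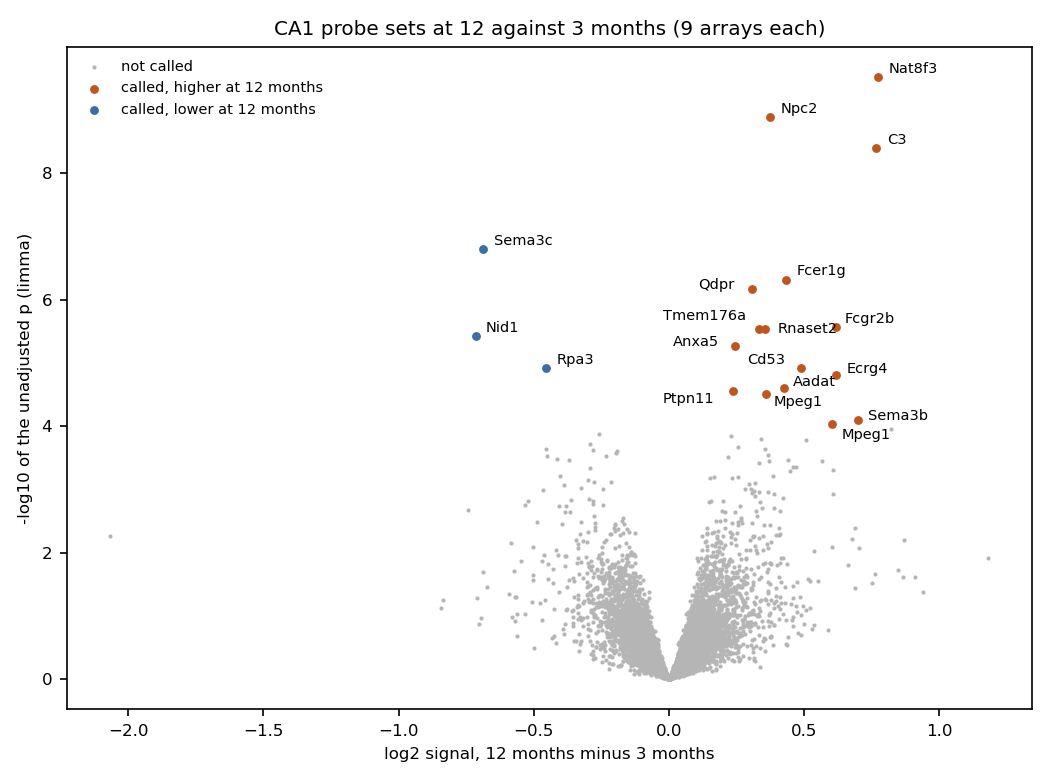
Each point is 1 of 9541 probe sets, with the log2 difference of 12 minus 3 months on the x axis and the -log10 unadjusted limma p on the y axis. The 16 probe sets called higher (orange) include Nat8f3, Npc2 and C3 at the top, and the 3 called lower (blue) are Sema3c, Nid1 and Rpa3. The grey point at the far left is Ttr, which did not pass the test.

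Genes of microglia and other macrophages were prominent among the rises: Fcer1g, Fcgr2b, Cd53 and Mpeg1. Fcer1g, the signalling adaptor chain shared by activating Fc receptors, had a lowest, median and highest signal of 683.1, 766.3 and 818.7 at 3 months and of 911.4, 1028 and 1174 at 12 months. Every 12 month animal was above every 3 month animal. The log2 difference was 0.43 ± 0.08 (SE), 1.35-fold, with a limma adjusted p = 9.16e-04. Fcgr2b, the inhibitory receptor for IgG, ran from 67.1 over a median of 101 to 111.1 at 3 months and from 103.1 over 136.8 to 176.4 at 12 months. Only 1 animal of 12 months fell within the 3 month range, and the gene rose by 0.62 ± 0.12 on the log2 scale, 1.54-fold (limma, adjusted p = 0.00306). Its 3 month mean of 92.8 was below the signal minimum of 100. Cd53, a tetraspanin of leukocytes, had values of 157.6, 237.1 and 301.4 at 3 months against 278.9, 311.5 and 394.6 at 12 months. The groups overlapped in 3 animals of 12 months, and the rise was 0.49 ± 0.10, 1.40-fold (limma, adjusted p = 0.00889).

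Mpeg1, which encodes the macrophage pore-forming protein perforin-2, was measured by 2 probe sets, and both were called higher. The brighter one had a lowest, median and highest signal of 539.7, 722.6 and 812.5 at 3 months and of 810.6, 884.5 and 1050 at 12 months, with 1 animal of 12 months inside the younger range. Its log2 difference was 0.36 ± 0.08 (limma, adjusted p = 0.0172). The dimmer one rose from a mean of 82.0 ± 23.0 to 120.4 ± 13.6 (SD, n = 9 each), a log2 difference of 0.60 ± 0.14 (limma, adjusted p = 0.0471). The call of the brighter probe set ended without 3 month replicate 9 or 12 month replicate 4 (adjusted p up to 0.078), and that of the dimmer one without any 1 of 12 arrays (adjusted p up to 0.14). Of 15 other settings 9 also ended the call of the dimmer probe set, among them quantile normalization (limma, adjusted p = 0.111), a floor of 64 (0.0657), choroid plexus markers as a covariate (0.0615) and median centring (0.0513).

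The microglia list held 34 genes, of which 24 passed the signal filter. Of these 3 were called higher and 0 lower, against 0.185% and 0.0247% of all genes, and 11 were higher and 0 lower at an unadjusted p under 0.05 (45.8% against 4.56% of all genes). The median log2 difference of the 24 was 0.17, beside 0.00 for all genes, and 21 were above 0. Their summed signal had a lowest, median and highest value of 11370, 12004 and 13239 at 3 months and of 12653, 13979 and 15539 at 12 months. The 2 ranges overlapped at their edges. Ctss, the brightest of the 24, weighs most in this sum, with means of 3820 and 4665, and did not pass (limma, adjusted p = 0.154). Without the 4 arrays of high Ttr the median log2 difference was again 0.17. The rise was not shared by all markers. The 3 below 0 were Itgam at -0.33, Coro1a at -0.14 and Ly86 at -0.08. Cx3cr1 lay at 0.00 and Tmem119 at 0.08, and none of these 5 passed. Laptm5, a lysosomal membrane protein of blood-derived cells, had 272.8 ± 24.8 and 345.8 ± 37.8 (SD, n = 9 each), and the log2 difference of 0.34 fell short of the threshold (limma, adjusted p = 0.0656).

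Complement component C3, on which the pathways of complement activation converge, had the second largest rise among the called genes. Its signal ran from 210.8 over a median of 257.8 to 356.1 at 3 months and from 366.9 over 456.6 to 558.8 at 12 months, with no overlap. The log2 difference was 0.77 ± 0.11, 1.70-fold (limma, adjusted p = 1.26e-05). Among the 12 complement genes measured, 1 was called higher and 0 lower, the median was 0.11, and 5 were higher and 1 lower at an unadjusted p under 0.05 (41.7% and 8.33%, against 4.56% and 3.32% of all genes). C1qb, a chain of the recognition molecule C1q, had 544.1 ± 76.1 and 694.6 ± 74.5 (log2 difference 0.36, limma, adjusted p = 0.0779). It is also on the microglia list, so the counts of the complement and microglia lists are not separate. Vitronectin (Vtn), an inhibitor of the terminal complex, lay the other way, with 227.8 ± 41.3 and 177.8 ± 33.4 (log2 difference -0.36, limma, adjusted p = 0.190). Neither C1qb nor Vtn passed.

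Promoters of 3 of these genes are shown because the genes rose together. Cd53 and Mpeg1 are genes of macrophages, in which the factor PU.1 is known to act on a purine-rich core, GAGGAA. The cells that the C3 signal comes from were not tested. Fcer1g and Fcgr2b had no promoter among those searched. The sequences are from RefSeq, assembly GRCr8, and cover the 250 bases before the annotated start, written 5′ to 3′ on the strand of the gene; capitals mark the core, here met on the opposite strand. They lie at chr2:197087897-197088146 (minus strand) for Cd53, chr1:218876644-218876893 (plus strand) for Mpeg1 and chr9:2201340-2201589 (minus strand) for C3.
Cd53: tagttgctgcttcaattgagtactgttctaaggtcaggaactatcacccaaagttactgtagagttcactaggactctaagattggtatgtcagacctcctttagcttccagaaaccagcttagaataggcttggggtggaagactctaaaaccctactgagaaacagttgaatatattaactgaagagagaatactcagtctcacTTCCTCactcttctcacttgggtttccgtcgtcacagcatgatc
Mpeg1: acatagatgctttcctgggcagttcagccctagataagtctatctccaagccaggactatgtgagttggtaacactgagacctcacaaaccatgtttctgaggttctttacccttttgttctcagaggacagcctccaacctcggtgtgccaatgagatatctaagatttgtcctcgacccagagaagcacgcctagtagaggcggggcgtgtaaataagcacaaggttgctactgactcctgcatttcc
C3: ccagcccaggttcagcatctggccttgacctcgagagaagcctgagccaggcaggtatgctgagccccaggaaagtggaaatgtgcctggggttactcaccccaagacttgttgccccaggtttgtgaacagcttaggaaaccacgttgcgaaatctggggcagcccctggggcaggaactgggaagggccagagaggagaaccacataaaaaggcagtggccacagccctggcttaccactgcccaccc
Cd53 held the core once, and Mpeg1 and C3 did not hold it in this window. Of the 17 called genes 13 had a promoter in the table and 4 held the core on either strand (Cd53, Ecrg4, Qdpr and Tmem176a), beside 23.3% of all 33469 promoters. The motif was chosen after the called genes were known, and a match describes the letters only.

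Lysosomal genes rose beside them. Npc2, the soluble protein that hands cholesterol on inside the lysosome, had the smallest p among them. Its signal was 1689, 1880.3 and 2041 (lowest, median and highest) at 3 months and 2120.3, 2392 and 2758 at 12 months, so the groups did not overlap. The log2 difference was 0.37 ± 0.05, 1.30-fold (limma, adjusted p = 6.12e-06). Rnaset2, a lysosomal ribonuclease, ran from 896.7 over 952.2 to 1133 at 3 months and from 1122 over 1265 to 1329 at 12 months. A single 12 month animal lay inside the younger range, and the rise was 0.36 ± 0.07, 1.28-fold (limma, adjusted p = 0.00306).

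Of 51 listed genes of lysosomes and proteases 41 were measured, 2 were called higher and 0 lower, and 17 were higher and 0 lower at an unadjusted p under 0.05 (41.5% against 4.56% of all genes). The median of the 41 was 0.10 and 33 were above 0. Some of them, Laptm5 and cathepsin S (Ctss) among them, are also on the microglia list. The share of the lysosomal values that comes from microglia was not tested.

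Genes of antigen presentation lay mostly above 0 at mid-life, but none of them passed the test. All 8 class II presentation genes measured were above 0, with a median of 0.24, and 3 were higher at an unadjusted p under 0.05 (37.5% against 4.56% of all genes, of which 50.9% were above 0). Ctss, the protease that cleaves the invariant chain, is also on the microglia and lysosome lists. It had 3820 ± 345 at 3 months and 4665 ± 684 at 12 months (SD, n = 9 each, log2 difference 0.28, limma, adjusted p = 0.154). Ifi30, a lysosomal thiol reductase, had 385.6 ± 58.7 and 439.7 ± 55.3 (0.20, limma, adjusted p = 0.518). Between 12 and 23 months the median of the same 8 genes was 0.86, measured against the same 12 month arrays. Of 14 class I genes 13 were above 0, with a median of 0.09. The immunoproteasome subunit Psmb9 had 81.9 ± 14.4 and 115.5 ± 14.0 (0.51, limma, adjusted p = 0.0667), and B2m, the light chain of class I molecules, had 5709 ± 353 and 6408 ± 324 (0.17, limma, adjusted p = 0.121).

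Interferon response genes had a median of 0.17 over 15 measured genes with 0 called. Apart from Psmb9, the member of smallest p was Ifi27, with a log2 difference of 0.18 (limma, adjusted p = 0.376). For cytokine and inflammatory signalling 16 of 20 genes were above 0, the median was 0.12, and 0 were called. Annexin A3 (Anxa3) had 1094 ± 122 and 1301 ± 77.7 (0.26, limma, adjusted p = 0.0772). Il6st, the signal-transducing receptor chain of the interleukin-6 family, had 770.4 ± 137 and 941.3 ± 74.9 (0.31, limma, adjusted p = 0.160).

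**Figure D3:**
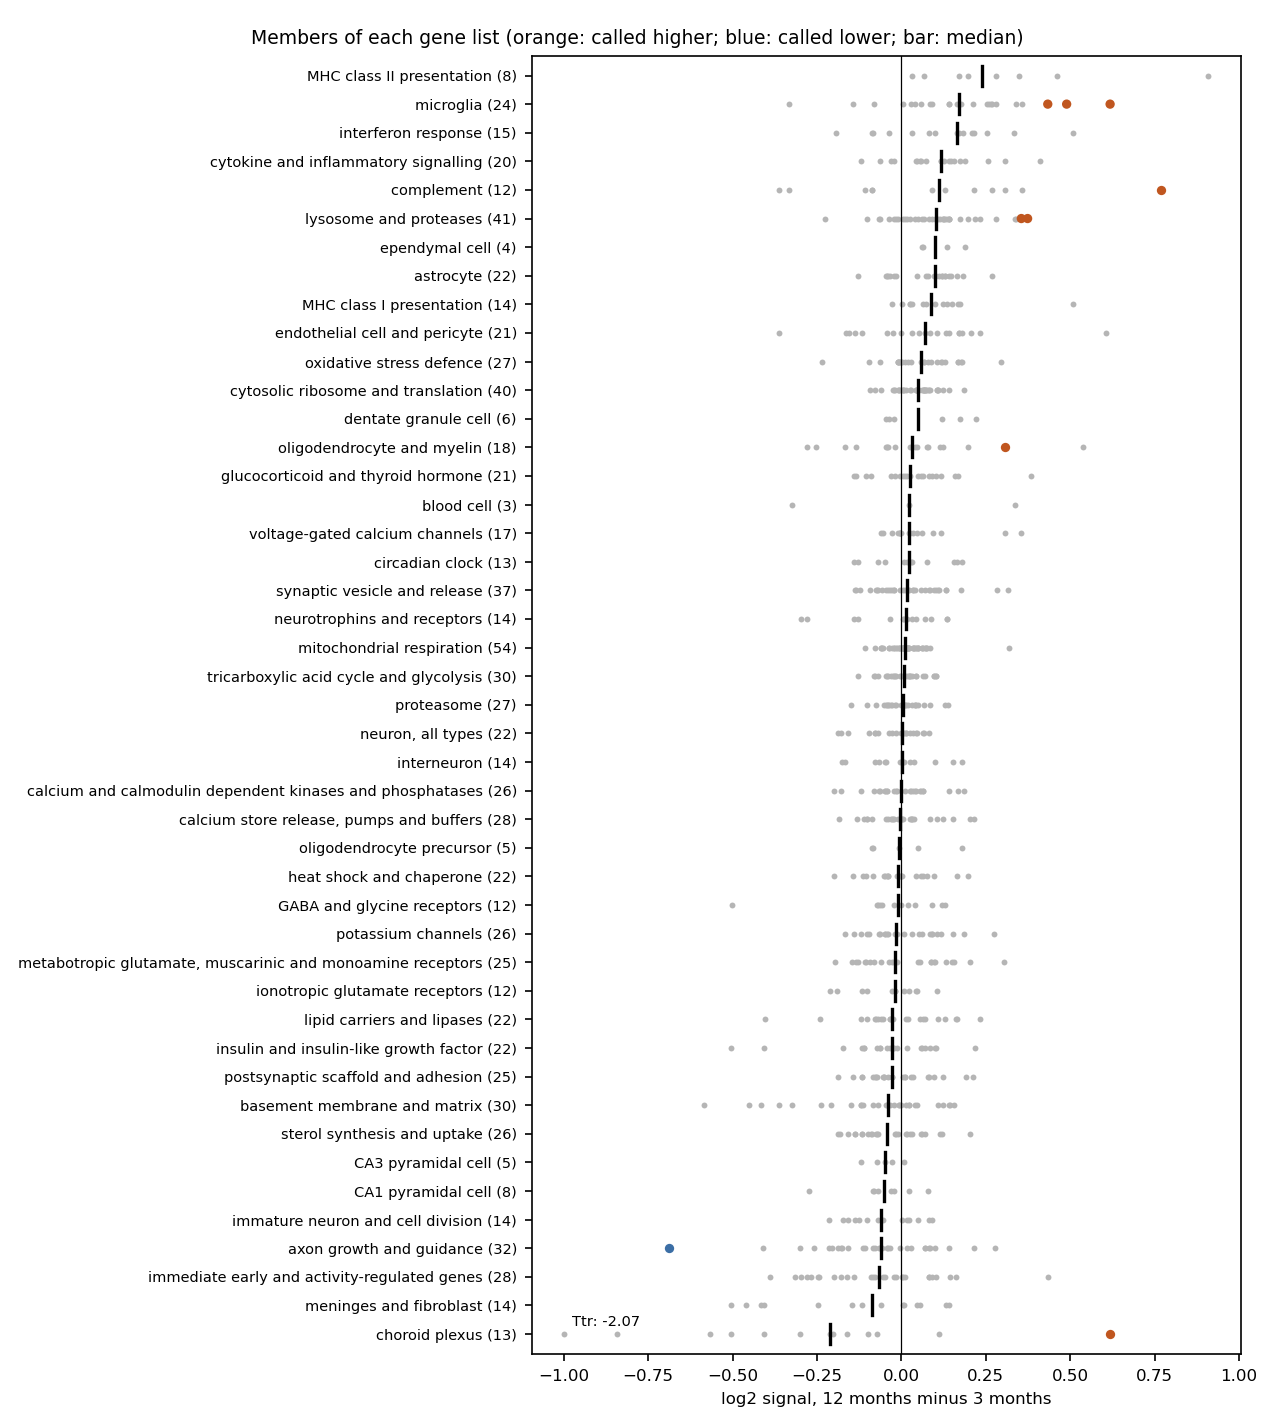
Log2 difference of 12 minus 3 months (x axis) for the measured members of 45 gene lists (y axis, number measured in brackets). Orange and blue points are genes called higher and lower, grey points did not pass, and black bars are list medians; Ttr, at -2.07, is drawn at the left edge. The lists of highest median are class II presentation (0.24), microglia (0.17) and interferon response (0.17), and the lowest is choroid plexus (-0.21).

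The largest rise among the called genes belonged to Nat8f3, a member of the N-acetyltransferase 8 family. Its signal ran from 184 over a median of 293.7 to 373.4 at 3 months and from 387.3 over 503.8 to 554.3 at 12 months. No 12 month animal reached down to the highest 3 month value. The log2 difference was 0.77 ± 0.10, 1.71-fold (limma, adjusted p = 2.87e-06), and without the 4 arrays of high Ttr it was 0.82 (limma, adjusted p = 4.46e-05).

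Other rises were in enzymes and signalling proteins. Qdpr, the dihydropteridine reductase that regenerates the cofactor of the aromatic amino acid hydroxylases, had values of 4280.1, 4628 and 5587 at 3 months and of 5021, 5912 and 6433 at 12 months. The groups overlapped in 2 older animals, and 3 month replicate 2 at 5587 stood above the other younger animals. It rose by 0.31 ± 0.05, 1.24-fold (limma, adjusted p = 0.00109). Aadat, the aminotransferase that makes kynurenic acid from kynurenine, went from 153.4, 178.5 and 203.8 to 200.4, 221.4 and 319.1. Its groups overlapped in 1 older animal, and the rise was 0.43 ± 0.09, 1.34-fold (limma, adjusted p = 0.0157). Leaving out 12 month replicate 1 or 9 ended that call (adjusted p up to 0.0609).

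Ptpn11, which encodes the tyrosine phosphatase Shp2, had 3188, 3733 and 3940 (lowest, median and highest) at 3 months and 3781, 4199 and 4813 at 12 months. The brighter of its probe sets rose by 0.24 ± 0.05, 1.18-fold (limma, adjusted p = 0.0163), while the dimmer differed by 0.21 and did not pass (limma, adjusted p = 0.846). Its call ended without 3 month replicate 9 or without 12 month replicate 3, 4 or 5 (adjusted p up to 0.072), with median centring (0.0759) and with choroid plexus markers as a covariate (0.062). Anxa5, a calcium-dependent binder of phosphatidylserine, went from 947.5, 1063 and 1181 to 1158, 1297 and 1338, with 1 older animal inside the younger range. That rise was 0.25 ± 0.05, 1.19-fold (limma, adjusted p = 0.0047).

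Tmem176a, a membrane protein with several spans, had 580.2, 688 and 867.8 at 3 months and 840.6, 907.5 and 945.7 at 12 months, overlapping in 2 older animals. It rose by 0.33 ± 0.06, 1.26-fold (limma, adjusted p = 0.0031), and by 0.43 without the 4 arrays of high Ttr (limma, adjusted p = 5.33e-04). Ecrg4, a secreted peptide precursor that is abundant in choroid plexus, went from 55.3, 68.7 and 79.5 to 82.7, 99.9 and 141.1 without overlap, a log2 difference of 0.62 ± 0.13, 1.53-fold (limma, adjusted p = 0.0107). It reached a signal of 100 on 0 arrays of 3 months, 4 of 12 months and 12 of 23 months, so it entered the test through the older ages, at which it is higher; a filter on the 18 arrays alone leaves it out. On the arrays of high Ttr its signal was 79.5, 62.9, 70.6 and 58.8, within the range of the other 3 month arrays or, for the first, the highest of that age.

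Ecrg4 was the single choroid plexus marker called, and it lay against the rest of its list. Of the 13 measured, 11 were below 0 and 2 above, with a median of -0.21; without the 4 arrays the median was 0.02. Ttr itself, at a log2 difference of -2.07, did not pass (limma, adjusted p = 0.343). The Ecrg4 difference was 0.64 without those arrays (limma, adjusted p = 0.0737).

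Semaphorins of class 3, secreted guidance cues that act through neuropilins and plexins, gave a higher and a lower call. Sema3c ran from 218.4 over 327.7 to 408.1 at 3 months and from 159.4 over 182.1 to 245.8 at 12 months. Older and younger values overlapped in 3 animals of 12 months, and the fall was -0.69 ± 0.11 on the log2 scale, 1.61-fold lower (limma, adjusted p = 3.79e-04). Sema3b went from 30.2, 54.8 and 62.8 to 50.3, 80.6 and 107.4, a log2 difference of 0.70 ± 0.16, 1.62-fold (limma, adjusted p = 0.0429). Both of its means were below 100. It reached that signal on 5 arrays, 2 of 12 months and 3 of 23 months, and on 0 of the younger ages, so it entered the test through the ages at which it is high. Its call ended without 3 month replicate 3, 5, 6 or 9 or 12 month replicate 4, 5, 6, 7 or 8 (adjusted p up to 0.121) with a floor of 64 on the signal (adjusted p = 0.254), with quantile normalization (0.105), with the replicate number as a block (0.0643) and with choroid plexus markers as a covariate (0.0615).

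Rpa3, the smallest subunit of the single-stranded DNA binding protein RPA, was the other gene that fell. Its signal ran from 179.2 over 192.2 to 227.6 at 3 months and from 121.1 over 149 to 162.7 at 12 months, with no overlap. The log2 difference was -0.45 ± 0.09, 1.37-fold lower (limma, adjusted p = 0.00889). Nidogen 1 (Nid1), a linker protein of basement membranes, was called lower by its dimmer probe set alone, from 82.9, 108 and 128.2 to 47.1, 69.1 and 90.6 (log2 difference -0.72 ± 0.14, limma, adjusted p = 0.00359). The brighter probe set had 269.5 ± 30.9 and 277.6 ± 33.9 (0.04, limma, adjusted p = 0.958), so the 2 disagree. The dimmer one reached 100 on 7 arrays of 3 months, 1 of 6 months and 0 of the later ages, so it entered the test through the group in which it is high, and Nid1 is not counted among the 17 genes.

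Other falls of small p did not pass. They were the splicing factor Rbm17, with 518.5 ± 52.3 and 433.1 ± 42.1 (-0.26, limma, adjusted p = 0.0608), the thrombin receptor F2r, with 703.3 ± 53.5 and 574.4 ± 49.5 (-0.29, limma, adjusted p = 0.0725), and Cebpz, with 510.5 ± 34.4 and 421.1 ± 34.1 (-0.28, limma, adjusted p = 0.0779).

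**Figure D4:**
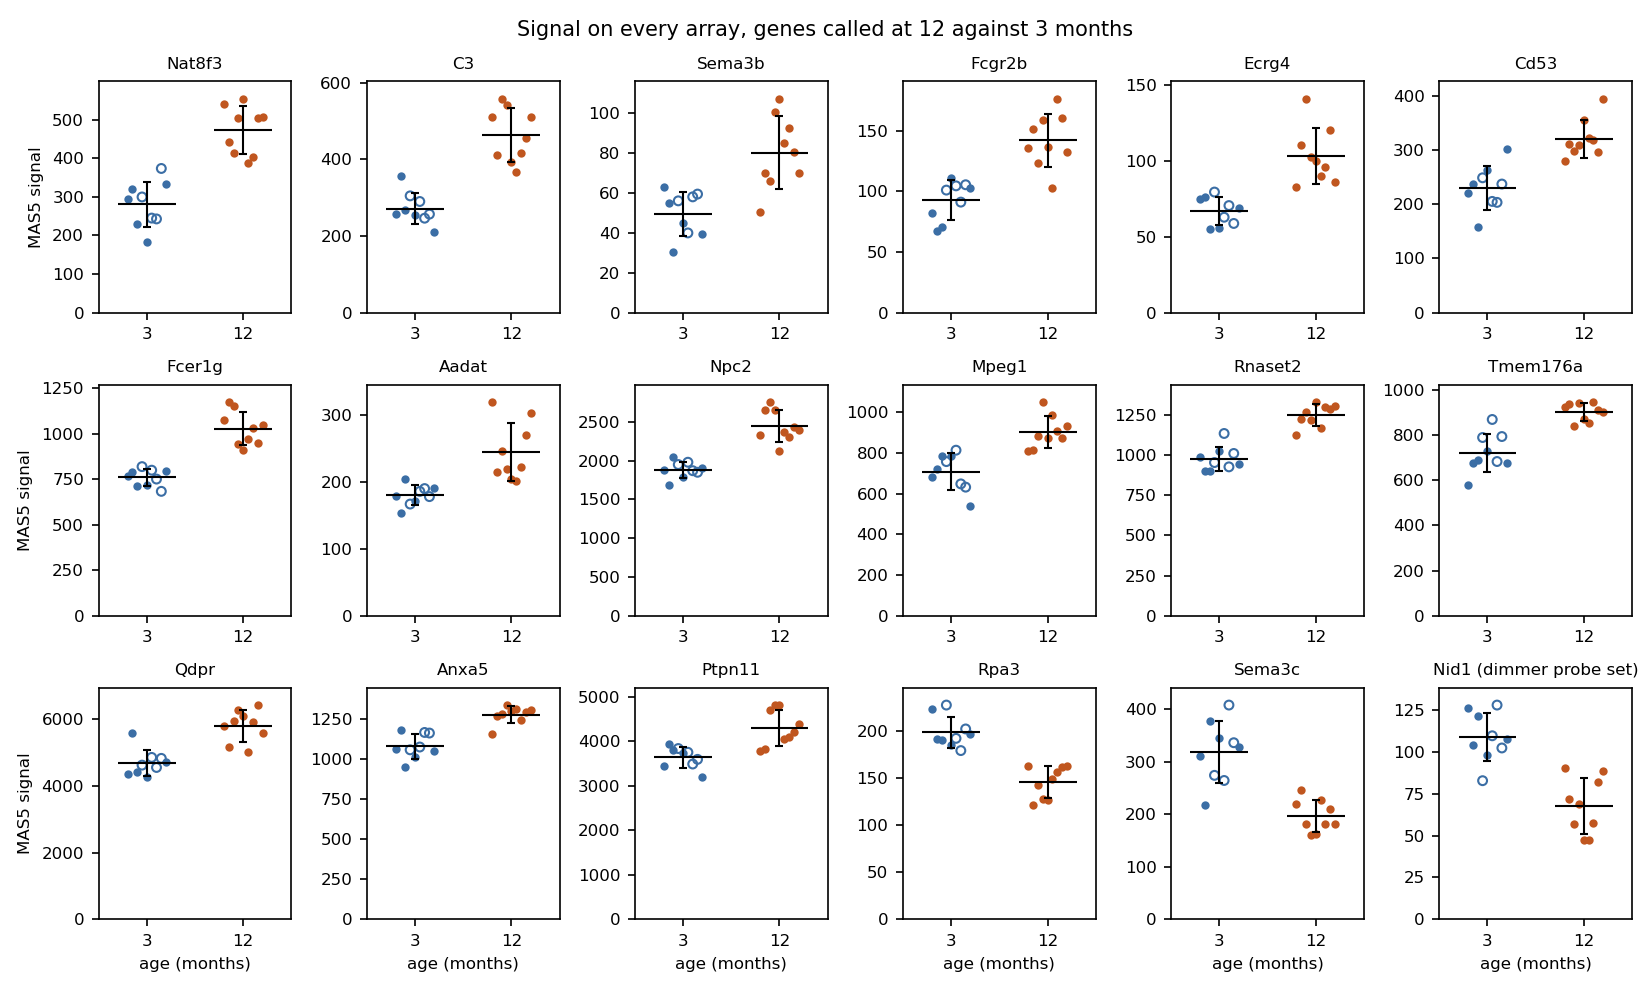
MAS5 signal of each array at 3 months (blue) and 12 months (orange) for the 17 called genes and the dimmer Nid1 probe set, with mean and SD (n = 9 each). Open symbols are the 4 arrays of 3 months with high Ttr. For Nat8f3, C3, Ecrg4, Fcer1g, Npc2 and Rpa3 the groups do not overlap.

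Groups that did not overlap were rare: 6 genes were higher and 2 lower on every 12 month array than on every 3 month array (0.0741% and 0.0247% of 8094). Of these, 6 are among the called genes. The other two were Pik3ip1, an inhibitor of phosphoinositide 3-kinase, with 361.2 to 398.4 at 3 months and 405.6 to 515.6 at 12 months (log2 difference 0.22, limma, adjusted p = 0.0839), and Vmp1, a membrane protein needed for autophagosome formation, with 559.5 to 749.9 and 423.8 to 554.5 (-0.37, limma, adjusted p = 0.0839). Without the 4 arrays of high Ttr, 14 genes were called, and 10 of them were among the 17. The calls that ended there were those of Cd53 and Aadat (limma, adjusted p = 0.105 for each), Ptpn11, Rpa3 and the brighter Mpeg1 probe set (0.0905 for each), Ecrg4 (0.0737) and Sema3b (0.0697), with 5 arrays of 3 months left in the fit. Their log2 differences without those arrays were 0.47 for Cd53, 0.43 for Aadat, 0.25 for Ptpn11, -0.45 for Rpa3, 0.37 for Mpeg1, 0.64 for Ecrg4 and 0.80 for Sema3b, all of the same sign as before. The other 4 were Anxa4, Cdh23, Nup188 and Usf2, with full-data adjusted limma p-values of 0.0889, 0.053, 0.121 and 0.160. Of these, Cdh23 had a signal of at most 95.7 at 3 months, below the signal minimum of 100.

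Among the macroglial genes Qdpr alone was called. None of 22 astrocyte genes was called; their median was 0.10, and 7 were higher and 0 lower at an unadjusted p under 0.05 (31.8% and 0%, against 4.56% and 3.32% of all genes). The glutamate transporter Slc1a3 had 7040.0 ± 563 and 7743 ± 369 (0.14, limma, adjusted p = 0.343), and Sparcl1, a secreted synaptogenic protein, differed by 0.12 (limma, adjusted p = 0.429). For 18 oligodendrocyte and myelin genes the median was 0.03, and 3 were higher and 3 lower at an unadjusted p under 0.05 (16.7% each, against 4.56% and 3.32%). Ugt8, the enzyme of galactocerebroside synthesis, had 600.8 ± 63.1 and 498.7 ± 82.6 (-0.28, limma, adjusted p = 0.190). Oligodendrocyte precursor markers had a median of -0.01 over 5 genes, with Cspg5 at 0.18 and Pdgfra at -0.09 (limma, adjusted p = 0.711 and 0.844).

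Vessel, meningeal and matrix genes gave no call by their brightest probe sets. The median of 21 endothelial and pericyte genes was 0.07. At an unadjusted p under 0.05, 4 were higher and 1 lower (19% and 4.76%, against 4.56% and 3.32% of all genes). Pecam1, an adhesion molecule of endothelium, had 60.7 ± 14.0 and 91.4 ± 16.6 (0.61, limma, adjusted p = 0.166). Meningeal and fibroblast markers had a median of -0.09 over 14 genes, with collagen gene Col3a1 at -0.42 and osteoglycin (Ogn) at -0.46 (limma, adjusted p = 0.432 and 0.470). Of the 14, 0 were higher and 4 lower at an unadjusted p under 0.05 (28.6% lower against 3.32% of all genes). Among 30 genes of basement membrane and matrix 20 were below 0, the median was -0.04, and 1 was higher and 5 lower at an unadjusted p under 0.05 (16.7% lower against 3.32% of all genes). Col4a5, a chain of basement membrane collagen, had 248.6 ± 29.2 and 182.1 ± 25.3 (-0.45, limma, adjusted p = 0.0825). Ependymal markers had a median of 0.10 over 4 genes, led by Tekt1 and Tm4sf1 (0.19 and 0.14, limma, adjusted p = 0.790 and 0.807). The 3 blood cell genes had a median of 0.02; Slc4a1 differed by -0.32 and Hbb by 0.34 (limma, adjusted p = 0.829 and 0.948).

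No gene of the neuronal marker lists was called. Of 22 general neuronal genes 11 were above and 11 below 0, the median was 0.00, and Chga and Scg2, both granins of secretory vesicles, differed by -0.19 and -0.18 (limma, adjusted p = 0.510 and 0.677). CA1 markers had a median of -0.05; Pou3f1, a transcription factor of CA1 pyramidal cells, had 957.9 ± 129 and 787.4 ± 64.1 (-0.28, limma, adjusted p = 0.313), and Ccn3 differed by 0.08 (0.829). CA3 markers had a median of -0.05 over 5 genes, with Elavl4 at -0.12 and Nptx1 at -0.07 (limma, adjusted p = 0.800 and 0.876). Dentate markers had a median of 0.05 over 6 genes, with Trpc6 at 0.17 and Stxbp6 at 0.12 (limma, adjusted p = 0.829 and 0.853). Interneuron genes had a median of 0.00 over 14, and the peptides Vip and Npy differed by -0.17 and -0.18 (limma, adjusted p = 0.594 and 0.634). Immature neuron and cell division genes had a median of -0.06 over 14, with Marcksl1 at -0.17 and Sox4 at -0.16 (limma, adjusted p = 0.496 and 0.725).

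Receptors and channels gave no call in either direction. For 12 ionotropic glutamate receptor genes the median was -0.02, and the AMPA receptor subunits Gria3 and Gria1 differed by -0.19 and -0.21 (limma, adjusted p = 0.551 and 0.700). The list of metabotropic glutamate, muscarinic, monoamine and other receptors had a median of -0.02 over 25 genes. The muscarinic receptor Chrm3 had 416.6 ± 62.5 and 510.5 ± 48.8 by its brighter probe set (0.30, limma, adjusted p = 0.154) and differed by -0.02 by the dimmer one, and Oprl1 differed by 0.20 (0.678). GABA and glycine receptors had a median of -0.01 over 12 genes, with Glra2 at -0.50 and Gabrb1 at 0.12 (limma, adjusted p = 0.550 and 0.790). In the 26 listed potassium channel genes the median was -0.02 and 0 had an unadjusted p under 0.05, with Kcnip3 at 0.15 and Kcnj6 at -0.14 (limma, adjusted p = 0.702 and 0.726). That list leaves out the potassium channel gene Kcnj16, which differed by 0.46 and did not pass (limma, adjusted p = 0.0985). The 17 measured genes listed under voltage-gated calcium channels and related subunits had a median of 0.02, with 0 at an unadjusted p under 0.05. Of these, Cacna1e was at 0.35 and Cacng8 at 0.31 (limma, adjusted p = 0.823 and 0.829).

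Calcium handling and synaptic lists had no called member. Calcium stores, pumps and buffers had a median of 0.00 over 28 genes. The pump Atp2a2 differed by 0.10 and Fkbp1b, a stabiliser of ryanodine receptors, by -0.19 (limma, adjusted p = 0.541 and 0.579). Calmodulin-dependent kinases and phosphatases had a median of 0.00 over 26, with Camk2g at 0.17 and Camk1 at -0.18 (limma, adjusted p = 0.546 and 0.678). Synaptic vesicle genes had a median of 0.02 over 37, with the priming factor Unc13b at 0.28 and Doc2b at 0.18 (limma, adjusted p = 0.623 and 0.657). Postsynaptic scaffolds had a median of -0.03 over 25, with Dlg4 at 0.19 and Baiap2 at 0.12 (limma, adjusted p = 0.751 and 0.762). Of 32 axon growth and guidance genes Sema3c alone was called, the median was -0.06, and 1 was higher and 6 lower at an unadjusted p under 0.05 (3.12% and 18.8%, against 4.56% and 3.32% of all genes). Nfasc, a cell adhesion protein of the axon initial segment, differed by -0.30 (limma, adjusted p = 0.126) by its brightest probe set.

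Immediate early and activity-regulated genes had a median of -0.07 over 28, with 0 called and 0 higher and 3 lower at an unadjusted p under 0.05 (10.7% lower against 3.32% of all genes). The nuclear receptors Nr4a2 and Nr4a3 differed by -0.30 and -0.24 (limma, adjusted p = 0.339 and 0.497). Homer1, a scaffold gene with a short activity-induced form, had 5 probe sets, and every one was lower at 12 months. One of the dimmer sets had 1038 ± 175 at 3 months and 755.8 ± 116 at 12 months (-0.45, limma, adjusted p = 0.0779), while the brightest had 1937 ± 204 and 1826 ± 187 (-0.09, limma, adjusted p = 0.782). That dimmer set was called lower than at 3 months at 9 months (-0.57, limma, adjusted p = 0.0195) and at 23 months (-0.73, 2.16e-06). The brightest differed by -0.11 at 9 months, which did not pass, and by -0.18 at 23 months (limma, adjusted p = 0.0445). Homer1 was singled out after its values were seen. The list of neurotrophins, other growth factors and their receptors had a median of 0.01 over 14 genes. Its members of smallest p were Fgfr2 at 0.13 and Ret at -0.30, receptors of other growth factors (limma, adjusted p = 0.590 and 0.665).

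Energy and proteostasis lists had no called member. In 54 genes of mitochondrial respiration the median was 0.01 and 0 had an unadjusted p under 0.05 in either direction, with Ndufb8 at 0.32 and Ndufa4 at -0.11 (limma, adjusted p = 0.678 and 0.716). For the tricarboxylic acid cycle and glycolysis it was 0.01 over 30, with Aldoa at 0.10 and Hk1 at 0.10 (limma, adjusted p = 0.484 and 0.634). The 40 ribosome and translation genes had a median of 0.05 and 30 were above 0, with Rpl34 at 0.12 and Rps15 at 0.14 (limma, adjusted p = 0.343 and 0.404). Proteasome genes had a median of 0.00 over 27, with Psmd8 at -0.10 and Psmc5 at 0.08 (limma, adjusted p = 0.665 and 0.711). Chaperones had a median of -0.01 over 22, with Dnajb1 at -0.20 and Dnaja1 at -0.11 (limma, adjusted p = 0.297 and 0.546). Oxidative stress defence had a median of 0.06 over 27; heme oxygenase 2 (Hmox2) had 818.7 ± 77.0 and 696.6 ± 69.1 (-0.23, limma, adjusted p = 0.0825), and Sod1 differed by 0.13 (0.501).

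Lipid, hormone and clock lists gave no call either. Lipoprotein lipase (Lpl) had 269.8 ± 43.9 and 201.8 ± 16.1 (-0.40, limma, adjusted p = 0.121) and apolipoprotein D (Apod) 2394 ± 209 and 2822 ± 330 (0.23, limma, adjusted p = 0.121) in a list of 22 lipid carriers and lipases with a median of -0.03. Sterol synthesis genes had a median of -0.04 over 26, with Cyp51 at -0.16 and Srebf1 at 0.20 (limma, adjusted p = 0.383 and 0.489). Insulin and insulin-like growth factor genes had a median of -0.03 over 22, led by Pik3ip1 and by Igfbp2 at -0.50 (limma, adjusted p = 0.546), which is also a choroid plexus marker. Glucocorticoid and thyroid hormone genes had a median of 0.03 over 21, with Rxrb at -0.13 and Mt2A at 0.17 (limma, adjusted p = 0.732 and 0.822). Clock genes had a median of 0.02 over 13, with Nr1d1 at 0.16 and Bhlhe41 at 0.18 (limma, adjusted p = 0.711 and 0.723). In all, 39 of the 45 lists had no called member, with medians from -0.09 to 0.24.

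The values at the other ages place these differences in the life course. Comparisons against 3 months share the 3 month arrays, and those of 12 against 3 and of 23 against 12 months share the 12 month arrays, so the values stand side by side without a test of overlap. Against 3 months, by the brightest probe set of each gene, 1 gene was called higher and 0 lower at 6 months (0.0124% and 0%). At 9 months 4 were called higher and 0 lower (0.0494% and 0%). At 23 months 188 were called higher and 66 lower (2.32% and 0.815%). Between 12 and 23 months 25 were called higher and 1 lower (0.309% and 0.0124%).

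Nat8f3 was the gene called at 6 months. It was above 3 months by 0.58 at 6 months (limma, adjusted p = 0.00395), 0.66 at 9 months (1.64e-04), 0.77 at 12 months and 0.95 at 23 months (4.20e-11), and its difference of 0.17 between 12 and 23 months did not pass (limma, adjusted p = 0.620). Npc2 and Fcgr2b were also called at 9 months, by 0.27 and 0.54 (limma, adjusted p = 0.00941 and 0.0497). C3 was above 3 months by 0.30 at 6, 0.47 at 9, 0.77 at 12 and 1.35 at 23 months, of which the first 2 did not pass.

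Of the called genes, 5 were called again between 12 and 23 months in the same direction. They were C3 by 0.58 (limma, adjusted p = 6.45e-04), Fcgr2b by 0.68 (1.65e-04), Fcer1g by 0.33 (0.0101), Npc2 by 0.29 (2.35e-04) and Tmem176a by 0.29 (0.005). Differences that did not pass over that interval were 0.06 for Qdpr (limma, adjusted p = 0.811), 0.06 for Ptpn11 (0.799), 0.05 for Anxa5 (0.813) and -0.13 for Sema3c (0.792). Cd53, Rnaset2 and Mpeg1 were at 0.37, 0.25 and 0.25, which did not pass (limma, adjusted p = 0.0697, 0.0533 and 0.177). Ecrg4, Aadat and Sema3b were at 0.43, 0.21 and 0.19 and did not pass either (limma, adjusted p = 0.141, 0.432 and 0.792). The microglia median was 0.06 at 6 months and 0.07 at 9 months against 3 months, and 0.28 for 23 against 12 months.

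Rpa3 was the single called gene with the opposite sign between 12 and 23 months, at 0.22, which did not pass (limma, adjusted p = 0.429). At 23 months it was below 3 months by a log2 difference of -0.24 (limma, adjusted p = 0.129), and it was the one called gene that did not pass there. Rbm17 and Chrm3, neither called at 12 against 3 months, differed between 12 and 23 months by 0.24 and -0.33 (limma, adjusted p = 0.0397 for each). Chrm3 was the gene called lower over that interval. Its mean signal was 416.6 at 3, 454.3 at 6, 473.3 at 9, 510.5 at 12 and 407.2 at 23 months.

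**Figure D5:**
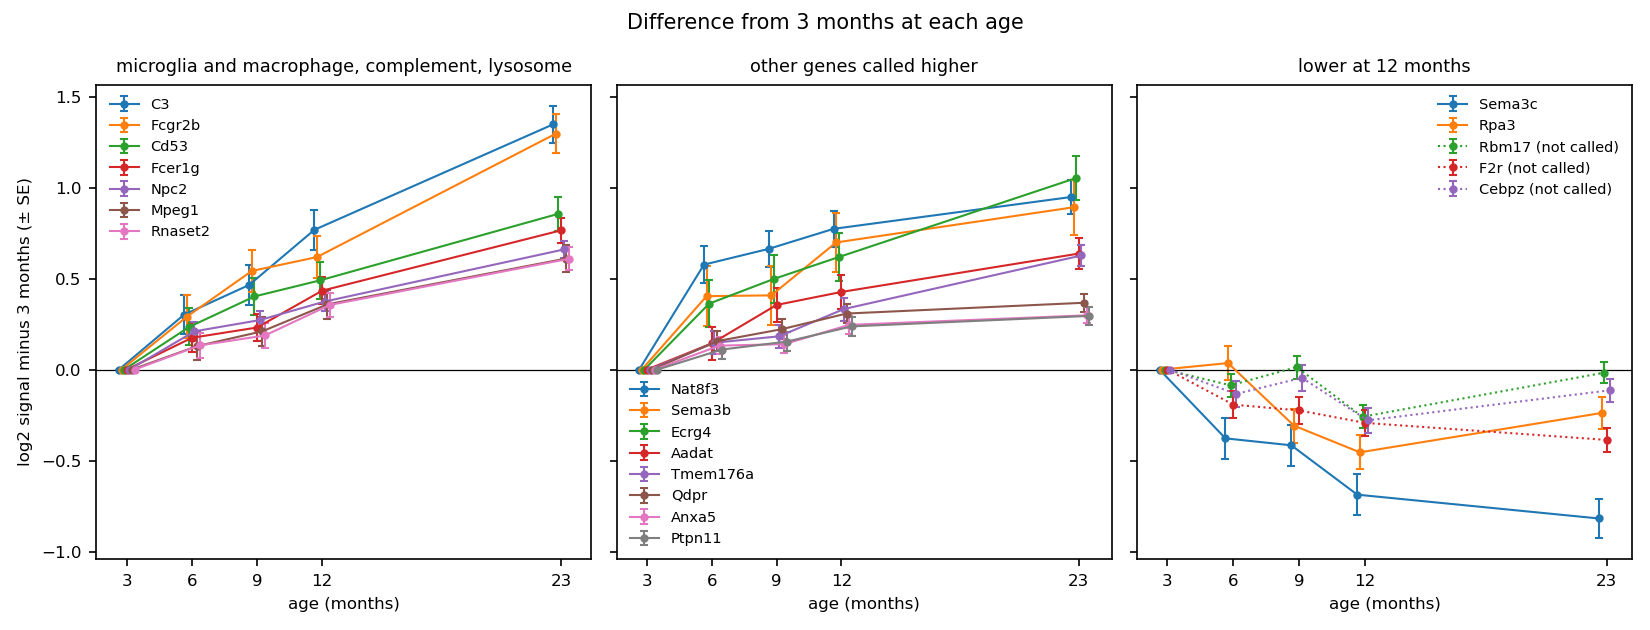
Log2 difference from 3 months at 6, 9, 12 and 23 months (x axis, months) with SE, for called genes of macrophages, complement and lysosome (left), other genes called higher (middle) and genes lower at 12 months (right, dotted where not called). All points of a gene share the 3 month arrays. C3 and Fcgr2b go on to 1.35 and 1.30 at 23 months, whereas Rpa3, Rbm17 and Cebpz lie nearer to 0 there than at 12 months.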

How the data were processed

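The authors deposited 1 linear intensity per probe set and array, made with MAS5 (per the submitters' processing notes) with scaling of every array to a target of 500 (per the series' design text). The MAS5 version, scan dates and presence calls are not given in the sources used here, so batches were not tested. Of 15923 probe sets 57 are controls, 12789 have 1 gene symbol in the platform annotation, 312 have several and 2822 are not listed there. Symbols were updated by Entrez ID (12754 matched) through the RefSeq table of GRCr8. Signals under 16 were set to 16, which concerned 0.0539% of tested values, and log2 values were taken.

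Tests used R 4.3.3 and limma 3.58.1 (lmFit, eBayes with a variance trend) in 1 fit of 49 arrays with a mean per age, adjusted by the Benjamini-Hochberg method over 9541 probe sets for each contrast; a probe set was called at an adjusted p under 0.05. Each array is a different animal, so the p-values reflect variation between animals, and their number limits the precision. A gene is represented by its probe set of highest mean log2 signal. The genes named are all called genes, the falls of smallest p, and for each of 45 lists its called members and the 2 members of smallest p. Members and lists were chosen with earlier results of these data known, so the lists are described by counts and medians and support nothing independently. Simulated data for this comparison (9541 probe sets) held 50 probe sets each with log2 changes of 0.25, 0.5, 1 and 2. The fit called 16, 34, 49 and 50 of them, and 1 of its 150 calls was false. The simulated noise was independent between probe sets. In the data 19 calls were made, so the threshold on p was looser in the simulation. These counts therefore do not give the share of changes found, or of false calls, in the data. No 2 of the 18 arrays were alike (153 pairs, SD of the log2 difference at least 0.278), and 0 columns of values were left unused. Behaviour scores are not analysed here. Alternatives covered the floor, the signal filter, scaling, the variance model, array weights, a block, covariates, the 18 arrays alone, and arrays left out. The set of 5 arrays of high Ttr (the 4 named and 1 of 23 months) was added after seeing the data.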

Additional observations from a re-analysis of the deposited data

Results flagged for a closer look

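Within an age, 15 of 208 groups of 9 arrays held an array farther from the rest than Dixon's criterion allows, where chance gives about 5%. The groups covered 102 entries, which were named genes and the dimmer Nid1 and Mpeg1 probe sets, and the GAPDH and actin ratios. Among the called genes Qdpr alone had such an array, at 5586.9 on 3 month replicate 2, where the next array had 4859.6. The same array was high for Dnajb1 (1009.6), Ndufa4 (6823.3) and Sod1 (6014.2). On 3 month replicate 4 Hbb was high at 210.3, next to 50.5, and Aldoa was low at 11183.4. Ogn was high at 229.4 on 3 month replicate 8, the array of highest Ttr, and Gria1 was high at 960 on 3 month replicate 9. At 12 months, replicate 1 was high for Baiap2 (2138.6), Ifi30 (576.4) and Pik3ip1 (515.6), replicate 3 for Hk1 (3219.1) and replicate 5 for Sod1 (6452.1). Apod was low at 2109.2 on 12 month replicate 6, and Psmb9 was low at 84.6 on 12 month replicate 4.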

How the results depend on the processing

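The counts of 16 probe sets higher and 3 lower stayed within 1.5 times under most alternatives. Array weights gave 26 higher and 11 lower. The count lower was 5 with an ordinary linear model, 8 in a fit of the 18 arrays alone, 5 with choroid plexus markers and 6 with Prox1 as a covariate. Leaving out 1 array at a time gave 13 to 19 higher and 3 to 6 lower. Without the 4 arrays of high Ttr it was 13 and 2, and 11 of the 19 probe sets were shared. The labels do not say that a replicate number marks a shared litter, batch or day. The 9 correlations of same-numbered arrays ran from -0.116 to 0.187, with 5 over 0.1, and 8 of 18 arrays correlated best with their own number, a hint from the data and not the design. With the replicate number as a block, 20 were higher and 8 lower, and the Sema3b call ended (limma, adjusted p = 0.0643). In the fit of the 18 arrays alone the calls of Aadat, Ecrg4, Ptpn11, Sema3b and the dimmer Mpeg1 probe set ended.

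Some single values turned sign, and the cause was not tested. Hbb went from 0.34 to -0.13 with a floor of 64, and Ttr from -2.07 to 0.17 without the 4, or the 5, arrays of high Ttr. The actin 3′ to 5′ difference became -0.001638 without 3 month replicate 6, -0.016 without 12 month replicate 5 and -0.0292 without the 4 arrays; with 1 array left out it ran from -0.016 to 0.0505. The other values were those of single genes, ratios and list medians under all alternatives. Of these 4901 kept direction and call, 44 gained the call, 62 lost it and 5 list medians moved. A list median has no call and counts as kept where it shifted by less than the SD of the list mean between 12 month arrays. Differences of about 0.25 were found for 16 of 50 simulated probe sets, at a looser threshold on p than in the data. Smaller changes than those called may therefore go unseen at this number of arrays.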

Other observations

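Annexins, calcium-dependent phospholipid binders, were looked at after Anxa5 was seen among the rises. Of 8 annexin genes measured 7 were above 0 at 12 against 3 months and 1 below, with a median log2 difference of 0.20, and Anxa5 alone was called. Anxa3 was at 0.26 and Anxa4 at 0.33 (limma, adjusted p = 0.0772 and 0.0889), and Anxa2 was at -0.12 (limma, adjusted p = 0.893). Class 3 semaphorins and their receptors gave 7 measured genes, of which Sema3b and Sema3c were called; the receptors Nrp1, Plxna1, Plxna2, Plxna3 and Plxnd1 lay between -0.18 and 0.06, and none of them passed (limma, lowest adjusted p = 0.829).

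Between an adjusted p of 0.05 and 0.10 there were 13 genes higher and 8 lower. Cdh23, a cadherin of stereocilia links, had the largest difference of these, at 0.82 (limma, adjusted p = 0.053). Its signal ran from 17.2 to 95.7 at 3 months, below the signal minimum of 100, with a mean of 109.0 at 12 months. It therefore entered the test through the older ages, at which it is higher. The calcium-binding protein S100a6 was at 0.56, the potassium channel Kcnj16 at 0.46 and the microsomal glutathione transferase Mgst1 at 0.37 (limma, adjusted p = 0.0839, 0.0985 and 0.0825). On the lower side were Spry2, an inhibitor of growth factor receptor signalling, at -0.41 and Tbc1d14 at -0.19 (limma, adjusted p = 0.0839 and 0.082).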
